A study of Mus musculus with 12 samples.

Results

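The genes described here encode the nuclear subunits of the mitochondrial respiratory chain and of ATP synthase, measured in mouse skin on dual-colour microarrays. They were taken by gene name: names that begin with Ndufa, Ndufb, Ndufc, Ndufs, Ndufv, Uqcr, Cox4i, Cox5, Cox6, Cox7, Cox8 or Atp5, together with Sdha, Sdhb, Sdhc, Sdhd and Cyc1. In all 137 probes of 94 genes matched, and 132 probes of 92 genes were kept, since their Cy5 signal passed the scanner's test against background on 3 or more of the 12 arrays. The same filter kept 28864 of all 39429 probes. Of the 92 genes, 80 encode subunits: 36 of complex I, 4 of complex II, 9 of complex III, 16 of complex IV and 15 of complex V. The name prefixes also took in 12 genes whose products are not counted as subunits here, among them the complex I assembly factors Ndufaf1 to Ndufaf7. Cox7b2 and Cox8c, testis isoforms of complex IV subunits, were well above background on 0 arrays and were left out, as were 1 dim probe of Atp5j and 2 of Ndufaf5. All 92 genes kept passed that test on all 12 arrays, and 82 of them were among the brightest genes, about 5520 of 22111.

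The skin came from male C57BL/6 mice of about 8 weeks, with 3 biological replicates in each of 4 groups. In 2 groups the skin carried a sutured incision 1 cm long, and 72 h after wounding it received into the dermis either PBS or 100 nmol of a miR-29b mimic, a synthetic RNA that adds miR-29 activity. The other 2 groups were of unwounded skin, injected with PBS or with 100 nmol of antimiR-29, an oligonucleotide that blocks miR-29. Whole pieces of skin were taken 24 h after the injection, so each value averages over every cell type in the piece. Every array set Cy5-labelled skin RNA against the same Cy3-labelled universal mouse reference RNA. Values below are log2 ratios of skin over reference, and a log2 change is the difference between 2 group means of such ratios.

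Oxidative phosphorylation makes most of the ATP of a resting cell. Complexes I and II pass electrons from NADH and succinate to ubiquinone, complex III passes them to cytochrome c, and complex IV passes them to oxygen, while complexes I, III and IV pump protons across the inner mitochondrial membrane and complex V lets them back to make ATP. All complexes but II also hold subunits encoded in mitochondrial DNA, so the nuclear and the mitochondrial genome both supply the parts. Several complex IV subunits exist as isoforms, of which Cox6a2, Cox7a1 and Cox8b are known from heart and skeletal muscle in the mouse.

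Promoters of the nuclear genes were taken from RefSeq on the GRCm38.p6 build. All 92 genes were matched, by transcript accession, symbol or synonym, and 75 had an entry for the region around the start site. Sites of NRF1 and of ETS factors are well-known features of respiratory gene promoters, and the E-box CAGCTG is a site of myogenic factors. Searched on both strands, the NRF1 core GCATGCGC was in 12 of the 75 promoters, or 16.0%, against 2.8% of all 27025 promoters in the table. The ETS core CCGGAAG was in 16, or 21.3%, against 9.12%, and CAGCTG was in 6, or 8.0%, against 16.1%. The median GC content was 58.3% in the members' promoters and 52.7% in all promoters, and the part of base composition in these shares was not tested. The 150 bases upstream of the start site are shown in the direction of transcription, with matches to these motifs in capitals. They are given for both muscle isoforms that had an entry and for 3 subunits of different complexes whose transcripts passed the test in a comparison below. These 3 subunits all hold an NRF1 or ETS match upstream. Of the other subunits that passed, Ndufa10, Uqcr10, Uqcrfs1, Ndufs7 and Ndufa4 had no match to any of the motifs. Matches of Ndufs8 and Uqcrc1 lay downstream of the start site, and Atp5a1 and Cyc1 had no entry. Ndufa6 (chr15:82354292-82354441, minus strand) and Sdhb (chr4:140961121-140961270, plus strand) hold the NRF1 core at -83 and -54 from the start site. Atp5h (chr11:115419920-115420069, minus strand) holds the ETS core on the reverse strand at -38, and Cox8b (chr7:140900447-140900596, minus strand) holds CAGCTG close to the start site. Cox7a1 (chr7:30184021-30184170, plus strand) had no match in this window.
Ndufa6: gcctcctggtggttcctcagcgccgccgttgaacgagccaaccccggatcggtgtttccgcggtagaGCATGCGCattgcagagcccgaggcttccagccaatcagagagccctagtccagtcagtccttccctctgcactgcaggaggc
Sdhb: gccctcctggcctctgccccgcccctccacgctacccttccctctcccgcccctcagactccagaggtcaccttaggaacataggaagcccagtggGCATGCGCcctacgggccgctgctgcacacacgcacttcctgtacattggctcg
Atp5h: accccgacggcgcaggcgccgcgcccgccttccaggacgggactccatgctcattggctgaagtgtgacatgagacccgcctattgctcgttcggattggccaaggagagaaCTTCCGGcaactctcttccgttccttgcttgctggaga
Cox8b: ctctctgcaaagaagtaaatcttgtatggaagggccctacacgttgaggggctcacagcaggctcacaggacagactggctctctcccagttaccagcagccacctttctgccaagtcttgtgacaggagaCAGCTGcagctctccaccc
Cox7a1: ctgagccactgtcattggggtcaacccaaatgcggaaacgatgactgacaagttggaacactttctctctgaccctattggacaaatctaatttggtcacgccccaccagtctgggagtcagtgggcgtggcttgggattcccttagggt
These letters describe the promoters, and no binding was measured.

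Per array, 65.7 to 73.9% of probes passed the background test in Cy5, the median signal was 3.67 to 5.00 times background, and 0 spots were saturated. Most keratinocyte markers were above the reference on every array, with Krt14 at 3.67 to 4.43 and Itga6 at 0.99 to 1.79, while Trp63 was at -0.38 to 0.45. The skeletal muscle actin Acta1 was at 5.09 to 6.21. Intact PBS array 3 had the lowest median correlation across genes with its own group, 0.92, against 0.938 to 0.976 for the others. It also had a high adipocyte marker score, 0.89, as did incised PBS array 2 (0.98) and mimic array 3 (0.55), where a score is the median over a list of log2 ratios centred on each gene's mean. The other 9 arrays had adipocyte scores from -0.93 to 0.02. The hair follicle score was 2.26 on intact PBS array 2, and 0.01 or lower on the other 11. Of the 3 slides, the first carried all incised PBS arrays with mimic array 1. The second carried the remaining mimic arrays with intact PBS arrays 1 and 2, and the third carried intact PBS array 3 with every antimiR array.

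The subunit genes were highest in intact skin under PBS and lowest in incised skin given the mimic. Of the 92 genes, 75 had their highest group mean in intact PBS skin and 74 their lowest in mimic-treated incisions, and 58 of the 80 subunits showed both. The median log2 change was -0.23 for mimic against PBS in incised skin, -0.26 for antimiR against PBS in intact skin and -0.19 for incised against intact skin under PBS. The medians over all genes were -0.00, 0.01 and 0.00. Values were negative for 88, 83 and 81 of the 92 genes, against 50.5%, 47.9% and 49.5% of all genes and 50.8%, 52.7% and 44% of the brightest genes. The median average log2 intensity was 14.21 for the members and 9.15 for all genes, and the part of intensity in these values was not tested. The median SD of a subunit gene within a group was 0.14. In bulk tissue, fewer cells of a type and less RNA per cell cannot be told apart. The mimic and wounding comparisons share the incised PBS arrays, and the antimiR and wounding comparisons share the intact PBS arrays, so the 3 sets of values are not independent of each other.

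**Figure D1:**
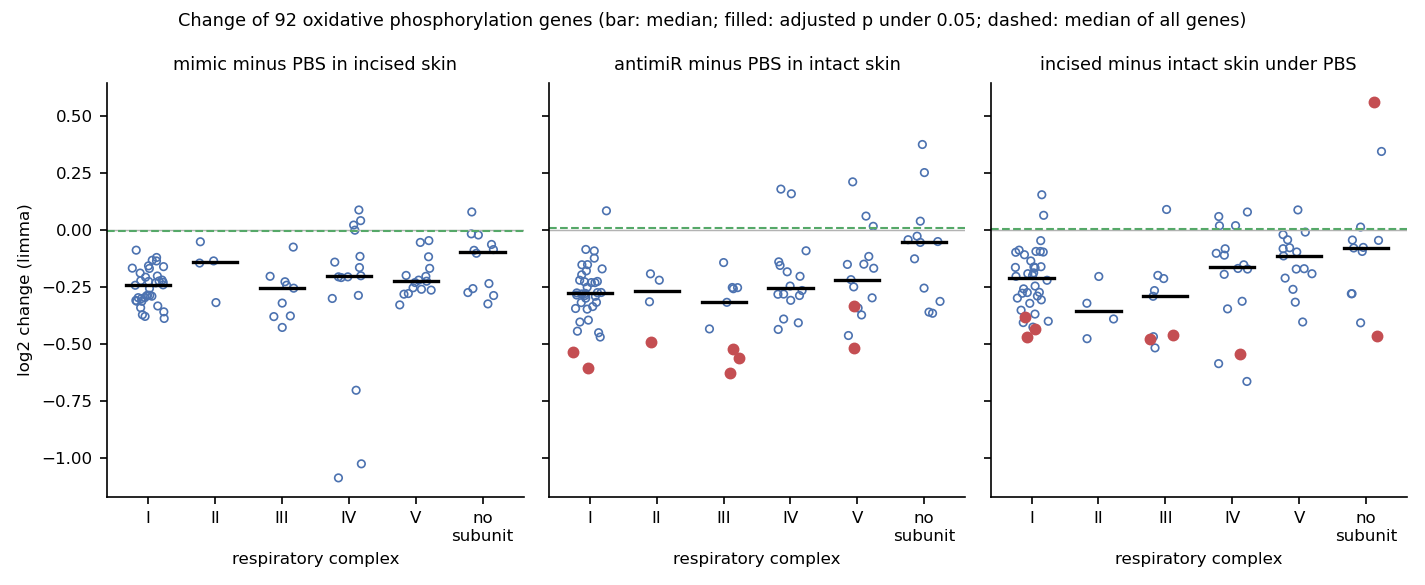
Log2 change of each of the 92 genes (points) in the 3 comparisons, by respiratory complex, with genes outside the complexes in the last column. Bars are medians, filled points have an adjusted p under 0.05, and the dashed line is the median of all genes. Most points lie below 0 in every comparison, and the 3 lowest points of complex IV with the mimic are Cox6a2 at -1.09, Cox7a1 at -1.03 and Cox8b at -0.70.

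The 5 complexes had medians near each other. With the mimic they ran from -0.14 for complex II to -0.26 for complex III, and were -0.24 for complex I, -0.20 for complex IV and -0.22 for complex V. With antimiR they were -0.28 for complex I, -0.27 for complex II, -0.32 for complex III, -0.26 for complex IV and -0.22 for complex V. The medians for wounding spread more widely, from -0.36 for complex II and -0.29 for complex III to -0.21, -0.16 and -0.11 for complexes I, IV and V. Whether the complexes differ from each other was not tested. Of the 36 complex I genes 36 were negative with the mimic, 35 with antimiR and 34 with wounding. All 4 genes of complex II were negative in each comparison, and of the 9 genes of complex III 9, 9 and 8 were.

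By array, the score over all 92 genes was -0.04, 0.17 and -0.09 on incised PBS arrays 1 to 3 and -0.22, -0.28 and -0.10 on the mimic arrays. It was 0.03, 0.28 and 0.35 on the intact PBS arrays and 0.02, -0.05 and -0.08 on the antimiR arrays. The 3 mimic arrays were thus the lowest of all 12, mimic array 3 only narrowly. The antimiR arrays lay below all intact PBS arrays, antimiR array 1 only narrowly. Single genes followed this order: intact PBS array 3 was the highest array for 51 of the 92 genes and intact PBS array 2 for 28, while mimic array 2 was the lowest for 50 and mimic array 1 for 19. The arrays of high adipocyte score had the highest member score of their group in each of the 3 groups they belong to. Without those 3 arrays the medians were -0.20 for the mimic, -0.20 for antimiR and -0.21 for wounding.

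**Figure D2:**
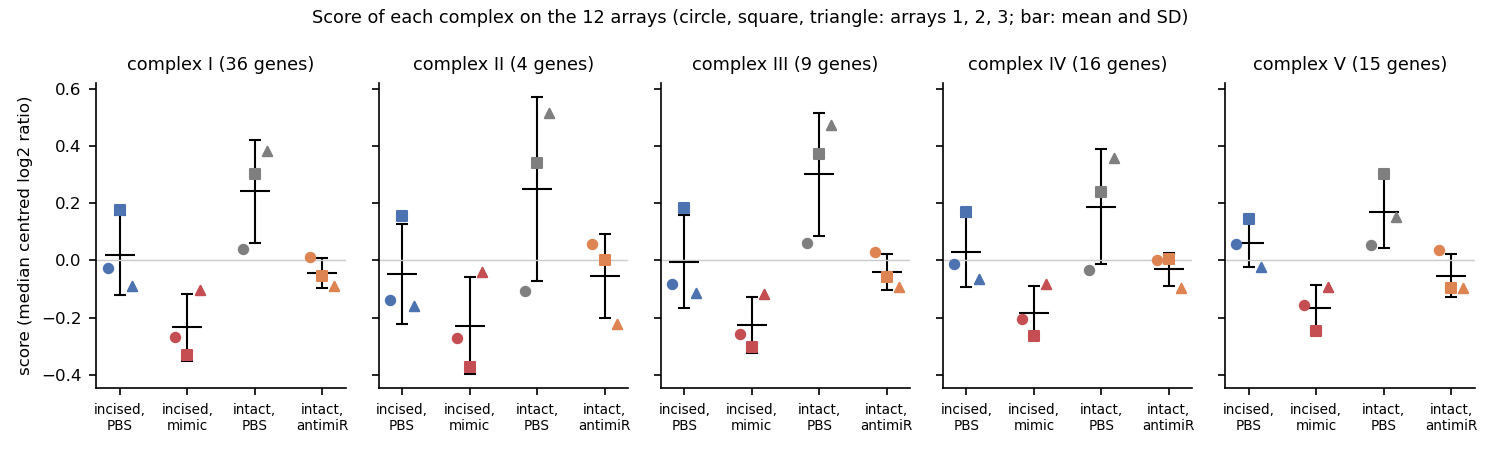
Score of each complex on each of the 12 arrays, as the median over its genes of the log2 ratio centred on the gene's mean. Points are arrays 1 to 3 of each group (circle, square, triangle) and bars are the mean and SD of 3 arrays. In every complex the mimic group has the lowest mean and the intact PBS group the highest.

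The mimic comparison asked which genes differed in a healing incision 24 h after miR-29 was added. Subunits of every complex had lower mean ratios with the mimic, yet 0 of the 92 genes passed an adjusted p of 0.05 in limma, where 0.539% of all genes did (0.348% lower and 0.19% higher). An unadjusted p under 0.05 was reached by 32 of them, or 34.8%, against 12.1% of all genes and 13.9% of the brightest genes. Of the arrays with a value, all mimic arrays lay below all PBS arrays for 42 of the 92 genes, or 45.7%. The shares were 11.5% of all genes and 14.5% of the brightest genes. The mimic arrays lay wholly above for 0 of the 92, against 12.3% of all genes. Here and in the counts below, arrays without a value were left out, and fewer values separate more easily. Of the 92 members 71 had a value on all 12 arrays, while 1177 of all 22111 genes lacked one on some array. The part of these gaps in the shares was not tested.

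The lowest changes belonged to the muscle-type isoforms of complex IV. Cox6a2, which replaces Cox6a1 in striated muscle (probe on chromosome 7, 135349160 to 135349219, mm9), had log2 ratios of 3.37, 2.85 and 3.13 on the incised PBS arrays and 2.44, 1.58 and 2.06 on the mimic arrays. The groups did not overlap, and the change was -1.09 ± 0.25 (SE; limma adjusted p = 0.085), to 0.47 of the PBS level. Cox7a1, the striated-muscle form of subunit 7a (chromosome 7, 30970337 to 30970948), went from 2.55, 2.13 and 2.41 to 1.53, 1.16 and 1.31, a change of -1.03 ± 0.32 (limma adjusted p = 0.20). Cox8b, the striated-muscle form of subunit 8 (chromosome 7, 148084852 to 148084911), went from 6.96, 6.82 and 6.88 to 6.33, 5.85 and 6.37, a change of -0.70 ± 0.17 (limma adjusted p = 0.10). For each isoform all 3 mimic arrays lay below all 3 PBS arrays, and none of the 3 passed the threshold. They did pass without intact PBS array 2, an array outside this comparison that adds to the shared estimate of spread (limma adjusted p = 0.049, 0.048 and 0.047), and Cox7a1 passed with only the incised groups in the fit (0.025). With scaling between arrays Cox8b turned to 0.31, while Cox6a2 and Cox7a1 were at -0.75 and -0.81. Within the first slide, with 1 mimic array against 3 PBS arrays, the changes were -0.68, -0.83 and -0.56.

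Their broadly expressed partners did not show such values. Cox6a1 was at 0.09 ± 0.27, with ratios of -0.02, 0.76 and 0.22 under PBS and 0.30, 0.31 and 0.61 with the mimic. Cox7a2 was at -0.21 ± 0.12, from -0.08, 0.32 and -0.01 to -0.23, -0.12 and -0.05, and Cox8a was at 0.02 ± 0.33, from -0.56, 0.26 and -0.43 to -0.45, -0.31 and 0.09. The groups of each partner overlapped, and the difference between isoform and partner was not tested. Cox6a1 and Cox8a were highest within their groups on incised PBS array 2, mimic array 3 and intact PBS array 3, the arrays of high adipocyte score, where Cox8a stood at 0.26, 0.09 and 0.67 against -0.77 to -0.19 on the other 9.

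Markers of skeletal muscle moved with the muscle isoforms. Of 19 such markers 19 were negative with the mimic, with a median of -0.62, the groups did not overlap for 19, and 4 passed, among them Pvalb at -0.65, Ampd1 at -1.10 and Atp2a1 at -0.89 (limma adjusted p = 0.026, 0.028 and 0.047). The muscle score ran from 0.19 to 0.35 on the incised PBS arrays and from -0.47 to -0.11 on the mimic arrays. The part of muscle RNA in the isoform values was not tested. Over the 77 subunits without the 3 muscle isoforms the median was -0.23, with 74 negative. Leaving out 3 genes can move such a median little, and the part of muscle RNA in the other subunits was not tested either. Fibroblast markers were also lower with the mimic, with a median of -0.81 and 3 of 12 called, and the median of the 12 adipocyte markers was -0.48, none of them called. The 6 brown adipocyte markers had a median of -0.35, with 6 negative and 0 called. The part of fat RNA in the isoform values was not tested.

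**Figure D3:**
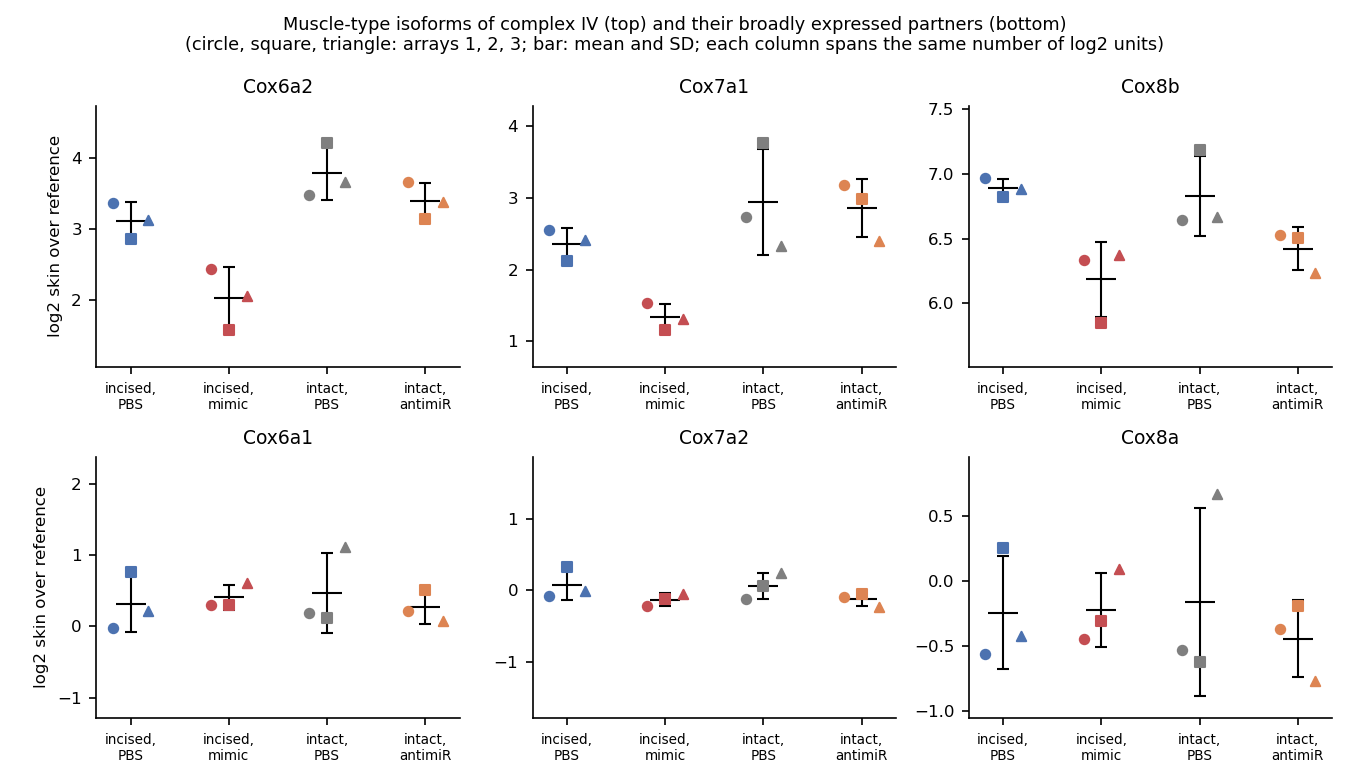
Log2 ratio of skin over reference for the muscle-type isoforms of complex IV (top) and their partners (bottom) on the 12 arrays, with circle, square and triangle for arrays 1 to 3 of a group and bars for the mean and SD. Each column spans the same number of log2 units. The mimic arrays are the lowest of all 12 for Cox6a2 and Cox7a1 and lie below the incised PBS arrays for Cox8b, and they overlap the incised PBS arrays for the partners.

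In the other complexes the smallest adjusted p values belonged to Ndufb10, Sdhb, Uqcrb and Atp5a1. Ndufb10, an accessory subunit of complex I (chromosome 17, 24859019 to 24859078), went from 0.85, 0.90 and 0.79 to 0.47, 0.44 and 0.62, a change of -0.33 ± 0.09 (limma adjusted p = 0.13). Atp5a1, the alpha subunit of the catalytic F1 part of ATP synthase, went from 0.68, 0.78 and 0.74 to 0.45, 0.42 and 0.50, a change of -0.28 ± 0.07 (0.13 with limma). In both genes the mimic arrays lay below the PBS arrays, and neither passed the threshold. Uqcrb, a small subunit of complex III, was at 0.79, 0.92 and 0.74 under PBS and at 0.52 and 0.35 on mimic arrays 1 and 2, with no value on mimic array 3 (change -0.38, limma adjusted p = 0.19). Sdhb, the iron-sulfur subunit of complex II, went from 0.80, 0.91 and 0.73 to 0.45, 0.41 and 0.63 (change -0.32, limma adjusted p = 0.27). The 7 genes of the catalytic core of complex I were all negative, from -0.34 to -0.13, and none passed. The 29 accessory subunits of complex I ran from -0.39 to -0.09, and the lowest, the small membrane subunit gene Ndufc1, was at -0.39. Complex III ran from -0.43, for the Rieske protein gene Uqcrfs1, to -0.07. Complex IV without its muscle isoforms ran from -0.30 to 0.09, and the 15 genes of ATP synthase ran from -0.33 to -0.05.

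The antimiR comparison asked which genes differed in intact skin after miR-29 was blocked. Here 8 of the 92 genes fell, or 8.70%, against 4.35% of all genes and 4.62% of the brightest genes, and 0 rose, against 5.05% (9.4% of all genes in either direction). They were the core complex I subunit Ndufs8, the accessory subunit Ndufa10, the complex II subunit Sdhb, the complex III subunits Uqcr10, Cyc1 and Uqcrfs1, and the ATP synthase subunits Atp5a1 and Atp5h. No subunit of complex IV passed. The antimiR arrays lay wholly below the PBS arrays for 36 of the 92 genes, or 39.1%, against 11.7% of all genes and 14.8% of the brightest genes, and wholly above for 2, Ndufaf5 and Cox7a2l, against 14%. An unadjusted p under 0.05 was reached by 42 genes, or 45.7%, against 23.9% of all genes and 25.7% of the brightest. The count of 8 became 20 without intact PBS array 1, 2 without antimiR array 2, 3 without intact PBS array 2, 4 without incised PBS array 1, 4 without antimiR array 3 (3 lower and 1 higher), and 5 without incised PBS array 3, mimic array 1 or antimiR array 1. It was 5 without the 3 arrays of high adipocyte score, a choice made after seeing the data.

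Ndufs8, which carries iron-sulfur clusters in the arm of complex I that passes electrons to ubiquinone (chromosome 19, 3911177 to 3911236), had ratios of -0.30, -0.07 and -0.24 in intact PBS skin and -0.71, -0.82 and -0.90 with antimiR. The groups were well apart, and the change was -0.61 ± 0.09 (limma adjusted p = 0.0021), to 0.656 of the PBS level. Atp5a1 went from 0.82, 0.96 and 0.94 to 0.46, 0.30 and 0.41, with no overlap and a change of -0.52 ± 0.07 (limma adjusted p = 0.0017). Ndufa10, an accessory subunit of complex I (chromosome 1, 94361039 to 94363996), went from 0.44, 0.74 and 0.59 to 0.15, -0.05 and 0.06, a change of -0.54 ± 0.11 (limma adjusted p = 0.013). Each of these 3 genes had every antimiR array below every PBS array. The calls of Ndufs8 and Atp5a1 held without any single array, and that of Ndufa10 ended without antimiR array 2 (-0.48, limma adjusted p = 0.054). With Cy5 alone the calls of Ndufs8 and Atp5a1 ended, at -0.66 and -0.57 (limma adjusted p = 0.16 and 0.13). That of Ndufa10 also ended with only the intact groups in the fit (0.065) and with slide as a fixed block (0.075).

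The other 5 falls were less firm. Atp5h, the d subunit in the stalk of ATP synthase (chromosome 11, 115277011 to 115277070), went from 0.53, 0.67 and 0.75 to 0.29, 0.31 and 0.35, a change of -0.34 ± 0.08 (limma adjusted p = 0.026). Sdhb (chromosome 4, 140535052 to 140535108) had no value on intact PBS array 1, and went from 1.32 and 1.08 to 0.87, 0.73 and 0.54, a change of -0.49 ± 0.12 (limma adjusted p = 0.036). Its other probe gave -0.56, with an adjusted p of 0.09 over all probes in limma. With outlier spots kept, Sdhb was at -0.30 (limma adjusted p = 0.28), and with Cy5 alone at -0.11 (0.78). In complex III, the Rieske iron-sulfur protein gene Uqcrfs1 (chromosome 13, 30632363 to 30632422) went from 0.83, 1.30 and 1.50 to 0.61, 0.63 and 0.51, a change of -0.63 ± 0.17 (limma adjusted p = 0.043). Cyc1, the gene of cytochrome c1 (chromosome 15, 76175938 to 76175997), went from 0.16, 0.41 and 0.57 to 0.01, -0.23 and -0.32, a change of -0.56 ± 0.15 (0.038 with limma). Uqcr10, a small subunit (chromosome 11, 4601979 to 4602038), had no value on intact PBS array 1 and went from 0.89 and 1.08 to 0.55, 0.40 and 0.46, a change of -0.52 ± 0.13 (0.037 with limma). Other Uqcr10 probes gave -0.37 and -0.27 and did not pass. With outlier spots kept Uqcr10 was at -0.35 (limma adjusted p = 0.20). The antimiR arrays lay below the PBS arrays for all 5 genes, and all 5 calls ended with Cy5 alone, with only the intact groups in the fit and with the authors' deposited table. With 1 array left out, the Atp5h call ended without intact PBS array 2 or 3 or any antimiR array, at -0.35 to -0.28 (limma adjusted p from 0.054 to 0.078). The Sdhb call ended without incised PBS array 1 or 3, mimic array 1 or 2, intact PBS array 2, or antimiR array 2 or 3, at -0.50 to -0.37 (0.05 to 0.19 in limma). That of Cyc1 ended without incised PBS array 1, mimic array 2, intact PBS array 2 or 3, or antimiR array 2 or 3, at -0.56 to -0.47 (0.055 to 0.12 in limma). That of Uqcr10 ended without incised PBS array 1 or 3, mimic array 1, intact PBS array 2 or 3 or any antimiR array, at -0.62 to -0.43 (0.05 to 0.13 in limma). That of Uqcrfs1 ended without any array except mimic arrays 2 and 3 and intact PBS array 1, at -0.65 to -0.49 (0.051 to 0.12 in limma).

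**Figure D4:**
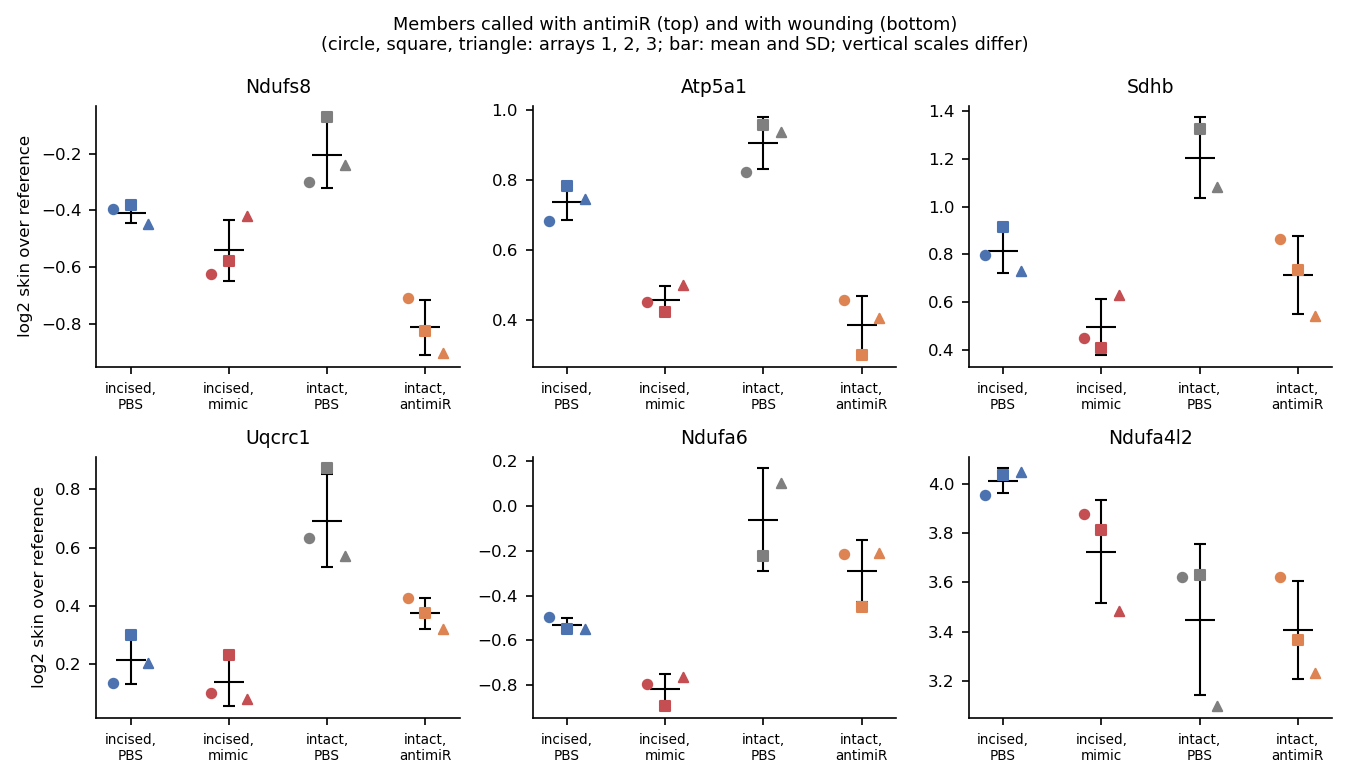
Log2 ratio of skin over reference on the 12 arrays for 3 genes called with antimiR (top: Ndufs8, Atp5a1 and Sdhb) and 3 called with wounding (bottom: Uqcrc1, Ndufa6 and Ndufa4l2), with circle, square and triangle for arrays 1 to 3 of a group and bars for the mean and SD. Sdhb and Ndufa6 have no value on intact PBS array 1. The antimiR arrays lie below the intact PBS arrays in the top row, and the incised PBS arrays lie below the intact PBS arrays for Uqcrc1 and Ndufa6 and above them for Ndufa4l2.

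Among genes that did not pass with antimiR, the smallest adjusted p of complex IV was that of Cox5a, a subunit on the matrix side, from 0.74, 1.24 and 1.02 to 0.59, 0.55 and 0.56 (change -0.44, limma adjusted p = 0.068). Without intact PBS array 1 it passed, at -0.57 (0.029 with limma). The muscle isoforms Cox6a2, Cox7a1 and Cox8b were at -0.39, -0.09 and -0.41 (limma adjusted p = 0.38, 0.90 and 0.17). Cox7a1 turned to 0.32 without intact PBS array 2, the array on which its ratio was 3.77, where arrays 1 and 3 of that group gave 2.74 and 2.33. Among the 19 muscle markers 18 were negative with antimiR, their median was -0.36, and Acta1 and Myh1 were called lower. The alternative isoforms Cox4i2, induced by low oxygen, and Cox6b2, a testis form, were at 0.18 and 0.16 and did not pass, while Cox4i1, the usual form, was at -0.25, from 0.00, 0.05 and 0.64 to -0.02, -0.00 and -0.02. By complex, the values with antimiR ran from -0.61 to 0.08 in complex I, from -0.49 to -0.19 in complex II, from -0.63 to -0.14 in complex III, from -0.44 to 0.18 in complex IV and from -0.52 to 0.21 in complex V. The upper end of complex V was Atp5o, the subunit that ties the stalk to the F1 head, at 0.21. Within the third slide, where intact PBS array 3 is the only control, the median of the 92 genes was -0.39, with Ndufs8 at -0.57 and Atp5a1 at -0.55.

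Signal along the transcripts also differed in this comparison. Pairs of probes of 1 gene were taken at least 100 bases apart on the genome, a distance that can include introns. Over 4863 such pairs the upstream probe's log2 change minus that of the downstream probe had a median of -0.12 with antimiR. The median was -0.00 with the mimic and 0.04 with wounding. Among the members 18 such pairs gave a median of -0.04 with antimiR, with 11 negative, or 61.1%, against 68.7% of all pairs. With wounding the members' pairs gave -0.03, again with 11 negative, against 44.1% of all pairs. With the mimic they gave 0.01, with 8 negative, or 44.4%, against 50% of all pairs. The part of this difference along transcripts in the members' values was not tested.

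The comparison of the PBS groups asked how a sutured incision differed from intact skin, 72 h plus 24 h after wounding. The genes called lower were those of complex I subunits Ndufa6, Ndufs7 and Ndufa10, complex III subunits Uqcrc1 and Uqcr10, the complex IV subunit Ndufa4, and Atp5c1-ps, a pseudogene of the ATP synthase gamma subunit gene. These 7 of 92, or 7.61%, compare with 5.29% of all genes and 4% of the brightest genes, shares near the background (15.1% of all genes in either direction). A single gene rose, Ndufa4l2, or 1.09%, against 9.82%. The incised arrays lay wholly below the intact arrays for 20 genes, or 21.7%, against 15% of all genes and 12.6% of the brightest genes, and wholly above for 2, Ndufa4l2 and Cox7a2l, against 19.9%. An unadjusted p under 0.05 was reached by 33 genes, or 35.9%, near the 31% of all genes and 31.3% of the brightest. The total of 8 became 19 without intact PBS array 1, 1 without incised PBS array 1 or 3, 3 without intact PBS array 2 or 3, 4 without incised PBS array 2 and 5 without mimic array 1. It was 2 without the 3 arrays of high adipocyte score.

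Uqcrc1, a core protein of complex III (chromosome 9, 108851008 to 108851487), had ratios of 0.14, 0.30 and 0.20 in incised and 0.63, 0.87 and 0.57 in intact PBS skin. The groups were apart, the change was -0.48 ± 0.09 (limma adjusted p = 0.0076), and the call held without any single array but not with only the PBS groups in the fit (0.051) or slide as a fixed block (0.28). Ndufa6, an accessory subunit that lies on the matrix arm of complex I (chromosome 15, 82181444 to 82181503), stood at -0.50, -0.55 and -0.55 in incised skin and at -0.22 and 0.10 in intact skin, with no value on intact PBS array 1 (change -0.47 ± 0.12, limma adjusted p = 0.024). Ndufs7, a core subunit next to the ubiquinone site (chromosome 10, 79719478 to 79719537), stood at 0.01, 0.11 and -0.01 against 0.24, 0.54 and 0.64, a change of -0.43 ± 0.11 (0.028 with limma). Ndufa10 was at 0.23, 0.27 and 0.12 against 0.44, 0.74 and 0.59, a change of -0.38 ± 0.11 (0.039 with limma), and Uqcr10 at 0.43, 0.74 and 0.41 against 0.89 and 1.08, a change of -0.46 ± 0.13 (0.043 with limma). In these 5 genes the incised arrays lay below the intact ones. Ndufa4, once assigned to complex I and now to complex IV (chromosome 6, 11850423 to 11850482), overlapped, at 0.34, 0.68 and 0.40 against 0.67, 1.10 and 1.30 (change -0.55 ± 0.17, limma adjusted p = 0.049).

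Ndufa4l2, a paralog of Ndufa4 known to be induced by hypoxia (chromosome 10, 126954149 to 126954208), went the other way. Its ratios were 3.95, 4.04 and 4.05 in incised and 3.62, 3.63 and 3.10 in intact PBS skin, a rise of 0.56 ± 0.16 (limma adjusted p = 0.038), or 1.48-fold. With the mimic it stood at 3.88, 3.81 and 3.49, below all incised PBS arrays (change -0.29, limma adjusted p = 0.52), and with antimiR at 3.62, 3.36 and 3.23 (change -0.04). With scaling between arrays the rise with wounding was 0.45 (0.27 with limma).

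All wounding calls but that of Uqcrc1 ended with some array left out. That of Ndufa6 ended without any incised PBS array or intact PBS array 3, at -0.49 to -0.31 (limma adjusted p from 0.059 to 0.13), and that of Ndufs7 without those 4 or intact PBS array 2, at -0.47 to -0.35 (0.053 to 0.086 in limma). Calls ended for Ndufa10 without any incised PBS array, intact PBS array 2 or 3, mimic array 1 or antimiR array 3, at -0.42 to -0.31 (0.052 to 0.13 in limma). For Uqcr10 they ended without incised PBS array 1 or 3, intact PBS array 2 or 3, mimic array 1 or any antimiR array, at -0.56 to -0.37 (0.053 to 0.18 in limma). For Ndufa4 they ended without any array except intact PBS array 1 and antimiR array 3, at -0.65 to -0.41 (0.051 to 0.15 in limma). Atp5c1-ps lost its call without incised PBS array 1 or 3 or intact PBS array 2 or 3, at -0.46 to -0.39 (0.05 to 0.075 in limma). Ndufa4l2 lost its call without any incised PBS array, mimic array 2, intact PBS array 3 or antimiR array 2, at 0.39 to 0.59 (0.051 to 0.10 in limma). No slide held both PBS groups, and with slide as a fixed block 0 of the 92 genes were called and 60 were negative. Ndufa4l2 was then at 0.16, Ndufs7 at -0.28 and Ndufa4 at -0.32. With only the PBS groups in the fit 0 were called as well. Uqcr10 was at -0.29 with outlier spots kept (limma adjusted p = 0.24), and Ndufa6 was at -0.24 in a fit to the authors' deposited table (0.23).

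By complex, the values with wounding ran from -0.47 to 0.16 in complex I, from -0.52 to 0.09 in complex III and from -0.40 to 0.09 in complex V. The core subunits of complex I had a median of -0.30 and the accessory ones of -0.19. Members that did not pass with wounding included all 4 genes of complex II, with Sdha at -0.48, Sdhb at -0.39, Sdhc at -0.32 and Sdhd at -0.20. Sdhb stood at 0.80, 0.91 and 0.73 in incised and at 1.32 and 1.08 in intact skin (limma adjusted p = 0.061), and passed with the extraction program's processed ratio (-0.50) and with scaling between arrays (-0.53). Atp5b, the catalytic beta subunit of ATP synthase, stood at 0.38, 0.68 and 0.34 against 0.57, 0.85 and 1.19 (change -0.40, limma adjusted p = 0.087), and passed without intact PBS array 1, at -0.55. Cox6a2 had the lowest value of the 92 genes, -0.67 (limma adjusted p = 0.093), and Cox7a1 was at -0.59, while Cox8b was at 0.06. The groups were apart only for Cox6a2 among these 3. The median of the 19 muscle markers was 0.08 in this comparison, and Pvalb and Myh4 were called higher. Of 8 markers of slow muscle 6 were called higher and Myoz2 lower, and their median was 1.28. The part of muscle RNA in these values was not tested.

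The effect of the mimic in incised skin and that of antimiR in intact skin were compared directly, as the difference between both changes. Over the 92 genes this difference had a median of 0.03, against -0.02 for all genes, and 40 were negative, or 43.5%, against 52.7% of all genes and 49.1% of the brightest genes. None passed, where 1.08% of all genes did, and 5 had an unadjusted p under 0.05, or 5.43%, against 14.2% of all genes and 14.1% of the brightest. Cox7a1 had the lowest difference, -0.94 (limma adjusted p = 0.39), and Ndufs8 the highest, 0.47 (limma adjusted p = 0.10). For Ndufs8 the changes were -0.13 with the mimic and -0.61 with antimiR. Opposite reagents thus came with medians of the same sign, in skin that also differed in wounding, and the 2 treatments were never given in the same kind of skin.

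Genes taken in by the prefixes but not counted as subunits were of several kinds. The 7 complex I assembly factors Ndufaf1 to Ndufaf7 had medians of -0.09 with the mimic, -0.13 with antimiR and -0.08 with wounding, and none passed at the probe used. Ndufaf4 was at -0.41 with wounding (limma adjusted p = 0.064), and its other probe was at -0.54 with an adjusted p of 0.0048 over all probes in limma. Ndufaf5 had the largest rise of all members with antimiR, 0.38, from 0.29, 0.22 and 0.11 to 0.67, 0.73 and 0.34 (limma adjusted p = 0.065). It passed with the processed ratio (0.48), with Cy5 alone (0.76) and without antimiR array 3 (0.50). Cox7a2l, a factor of supercomplex assembly, was at -0.26, 0.25 and 0.35 in the 3 comparisons and did not pass. Atp5c1-ps was at -0.32 and -0.36 with the mimic and antimiR and at -0.47 with wounding (limma adjusted p = 0.022), and its parent gene Atp5c1 was at -0.05, -0.12 and -0.11 with the brighter probe and at -0.24, -0.25 and -0.24 with the other, none called.

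Other genes of the respiratory pathway gave values of like sign. Transcripts of all 13 subunits encoded in mitochondrial DNA were negative in each of the 3 comparisons, with medians of -0.29, -0.62 and -0.55. None passed with the mimic, 5 fell with antimiR and 4 with wounding. With antimiR ND4L fell by 1.39 and ND1 by 0.79 on the log2 scale (limma adjusted p = 0.0019 and 0.0097), and with wounding COX3 fell by 0.57 and COX1 by 0.70 (0.017 and 0.026 with limma). ND4L, a membrane subunit of complex I, stood at 1.32, 1.48 and 1.87 on the intact PBS arrays and at 0.34, 0.32 and -0.16 on the antimiR arrays, well apart. The 16 genes of the TCA cycle and pyruvate dehydrogenase had medians of -0.34, -0.36 and -0.49, with 15, 16 and 16 negative. None of them passed with the mimic. Cs, the gene of citrate synthase, fell with antimiR by 0.50, as did Suclg1, a subunit of succinyl-CoA ligase, by 0.35 (limma adjusted p = 0.0028 and 0.046). With wounding 4 genes of the list fell, led by Idh3b, a subunit of isocitrate dehydrogenase, at -0.76 and Pdha1, a subunit of pyruvate dehydrogenase, at -0.76 (limma adjusted p = 0.010 and 0.046).

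**Figure D5:**
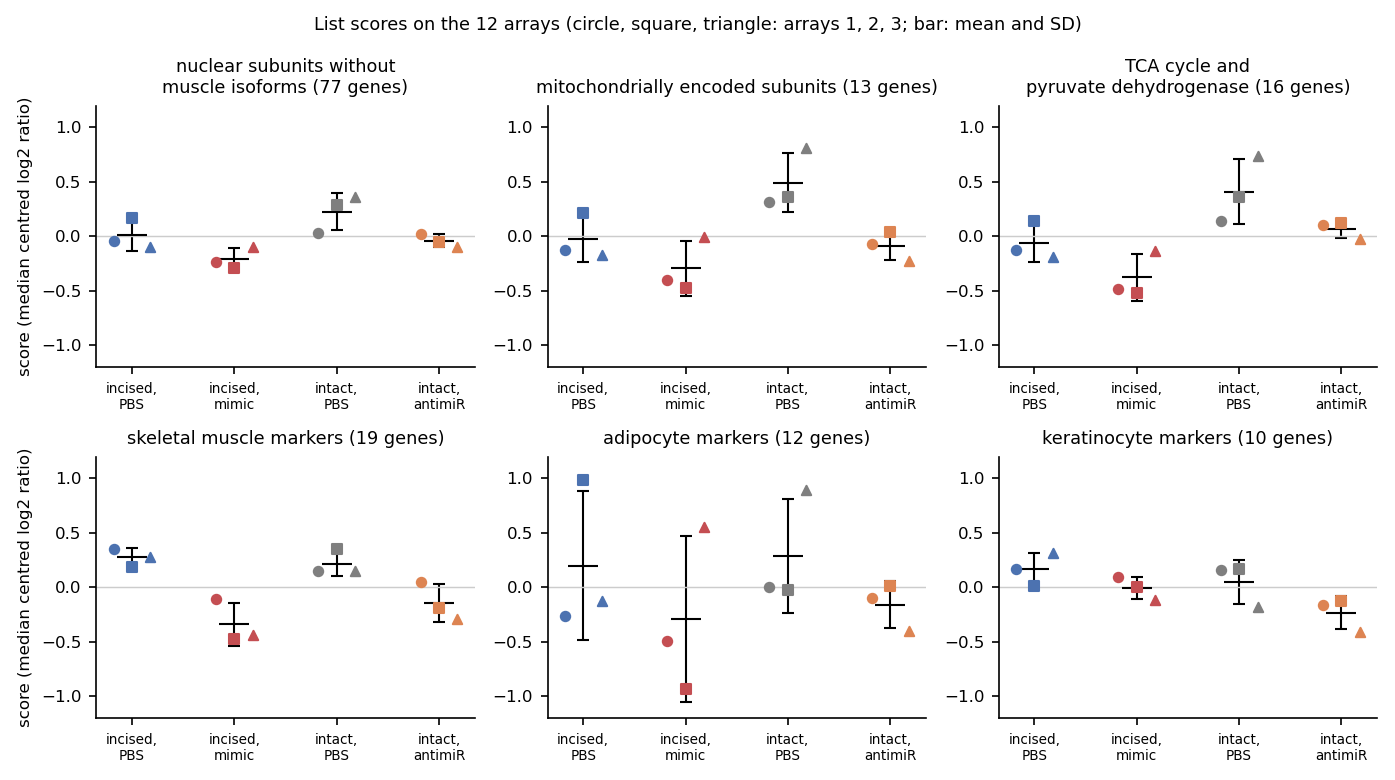
Scores of 6 gene lists on the 12 arrays, each the median over the list of log2 ratios centred on the gene's mean, with circle, square and triangle for arrays 1 to 3 of a group and bars for the mean and SD. The nuclear subunits, the mitochondrially encoded subunits and the TCA cycle list have their highest group mean in intact PBS skin and their lowest with the mimic. Adipocyte scores stand apart on incised PBS array 2 (0.98), mimic array 3 (0.55) and intact PBS array 3 (0.89).

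Carriers and regulators were mixed. Of 13 genes of mitochondrial carriers, porins and cytochrome c, with medians of -0.25, -0.26 and -0.17, only Vdac1, the main outer-membrane channel, passed, at -0.55 with antimiR and -0.32 with wounding (limma adjusted p = 0.0054 and 0.044). Slc25a4, the ADP/ATP carrier of striated muscle, was at -0.94 with the mimic (limma adjusted p = 0.16), and Slc25a5, its broadly expressed partner, at 0.25 (0.23). Among 25 further assembly factors Uqcc1, Tmem70 and Ttc19 fell with antimiR by 0.80, 0.53 and 0.43, and with wounding Sco1 fell by 0.40 while Timmdc1 rose by 0.47. Regulators of mitochondrial biogenesis had medians of -0.04, -0.03 and -0.18 over 12 genes. The coactivator gene Ppargc1a was at -0.58, -0.11 and -0.46 and did not pass, and Nrf1 was at 0.03, 0.17 and -0.09. With antimiR Yy1 rose by 0.30 (limma adjusted p = 0.034), and with wounding the mitochondrial transcription genes Polrmt and Tfb2m fell by 0.34 and 0.43 (0.017 and 0.024 with limma).

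Marker lists of other cell types also differed between the groups, and their part in the subunit values was not tested. With antimiR, adipocyte markers had a median of -0.45 and keratinocyte markers of -0.21, with 12 of 12 and 10 of 10 negative and 0 called in each. Macrophage markers were split, with 4 of 9 called higher and 4 negative, down to -0.83. With wounding, macrophage and neutrophil markers had medians of 0.90 and 0.98, with 6 of 9 and 2 of 8 called higher, and 1 of 12 hair follicle markers was called lower. Ucp1, the uncoupling protein of brown fat, stood at 5.17 on antimiR array 2 and at -0.09 to 1.32 on the other 11 arrays, while the subunit score of that array, -0.05, lay between those of the other antimiR arrays.

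Several probes measured 29 of the 92 genes. The range of their log2 changes within a gene had a median of 0.07 with the mimic, 0.11 with antimiR and 0.12 with wounding, and reached 0.49 for Ndufab1 with wounding. Signs differed between probes for Cox7c and Ndufv3 with the mimic, for Atp5l, Ndufb11, Atp5g1 and Cox7c with antimiR, and for Atp5j2, Ndufa3, Atp5g1 and Ndufab1 with wounding, none of them called. The files place 2 probes of Atp5k on chromosome Y, and such near-identical copies cannot be told apart by hybridisation. Atp5c1-ps may likewise share signal with Atp5c1.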

How the data were processed

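Per the file headers, Agilent Feature Extraction 11.5.1.1 gave the intensity of each spot and its background in both dyes, and a log10 ratio of the processed signals, with probe positions on mm9. A log2 table that the authors deposited has columns that correlate at 0.990 to 0.991 with processed Cy5 over Cy3, so it holds skin over reference. From the intensities, log2 ratios were computed with limma 3.58.1 in R 4.3.3: normexp with an offset of 50, then loess within arrays with control spots at weight 0. Outlier spots were dropped, spots averaged by probe, and each gene taken at its brightest probe. Group means of all 12 arrays were fitted with lmFit and eBayes, with Benjamini-Hochberg adjustment over the 22085 to 22098 genes each comparison could test, called at 0.05, 2-sided. Dropped spots left 21 members without a value on some array. The number of arrays limits the precision. The p-values rest on the spread between 3 animals per group, pooled over all 4 groups and moderated across genes by eBayes. Genes named by array are the complex IV isoforms, the called members or those of smallest p per complex, and the largest rises and falls, with non-subunits by group; others (Ndufc1, Atp5o, Sdha, Sdhc, Sdhd, Atp5c1, genes of uneven probes) were chosen after their values were seen. The fit was tested on simulated data, and other normalizations, filters, blocks and omitted arrays were tried as alternatives. Members, lists and tests were chosen with earlier results of these data known.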

Additional observations from a re-analysis of the deposited data

How the results depend on the processing

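Under every alternative run, the median log2 change of the 92 genes stayed negative for the mimic, antimiR and wounding comparisons, while counts of called genes moved. The wounding count, 8, was 5 with the processed ratio or scaling between arrays, 2 with Cy5 alone, 13 with every probe a feature, 0 with only the groups compared or with slide as a fixed block, 3 with slide as a random block and 4 with the deposited table. The antimiR count, 8, was 5 with scaling between arrays, 2 with Cy5 alone (1 lower and 1 higher), 2 with only the groups compared, and 3 with the deposited table. The mimic count, 0, was 1 with only the groups compared. The median was -0.10 for the mimic and -0.14 for antimiR with Cy5 alone, and -0.39 for antimiR and -0.11 for wounding with slide as a fixed block, and that of the difference between effects was 0.17 with scaling between arrays. Without the 3 arrays of high adipocyte markers, a choice made after seeing the data, 5 genes were called with antimiR and 2 with wounding. With 1 array left out, counts ran from 0 to 3 for the mimic (3 without intact PBS array 2), from 2 to 20 for antimiR (2 without antimiR array 2, 20 without intact PBS array 1) and from 1 to 19 for wounding (1 without incised PBS array 1 or 3, 19 without intact PBS array 1), and the difference between effects stayed at 0. The medians then ran from -0.28 to -0.14 for the mimic, from -0.35 to -0.20 for antimiR, from -0.30 to -0.13 for wounding and from -0.05 to 0.12 for the difference. The fits of only the groups compared hold fewer arrays, and for the other settings the cause was not tested.

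Deviations of same-numbered arrays correlated at 0.28, -0.34 and -0.38 for the mimic and PBS groups, at 0.13, -0.12 and 0.05 for antimiR and PBS, and at 0.11, -0.24 and -0.43 for both PBS groups, so the replicate numbers do not pair the samples. With the replicate block 5 genes were called with antimiR, 7 with wounding, 0 with the mimic and 0 for the difference.

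Among values of single named genes, 1501 kept their direction and side of the threshold, 173 called values lost the threshold and 12 gained it. A further 76 changed direction, called neither in the main fit nor in the alternative.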
